A study of Mus musculus with 25 samples.

Results

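Microglia, the resident macrophages of the central nervous system, were compared between day 3 and day 1 after spinal cord injury in mice. Cells carrying code 1 in the authors' deposited cell type column were taken, and their raw counts were summed within each library. The day 3 side held 5 libraries and 2165 microglia, and the day 1 side held 3 libraries and 3308 microglia. These 8 libraries are part of 25 in the series, and their 5473 cells are part of 13289 microglia and 30958 cells in all. The measurement is droplet-based 3′ single-cell RNA-seq, in which each captured transcript is counted once through its unique molecular identifier (UMI). Levels are given as CPM, the counts of a gene scaled to a fixed total of microglial UMIs in each library.

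All 8 libraries came from mice with a Cx3cr1CreERT2 allele, which places an inducible Cre recombinase under the promoter of Cx3cr1, a gene of microglia and many monocytes. Per the labels, each library pooled 1 to 3 mice and a lesion segment of 5 mm, freed of myelin on a density gradient. The 3 day 1 libraries and 3 of the day 3 libraries (mixed 1, mixed 2 and mixed 3) were Cx3cr1CreERT2 cells sorted for YFP alone, so resident and infiltrating cells were collected together. The other 2 day 3 libraries (resident 1 and resident 2) were Cx3cr1CreERT2:R26tdTomato cells sorted for both RFP and YFP. Sort and strain are therefore split the same way, and no resident library exists on the day 1 side of this comparison. Day 3 resident 1 was from female mice and the other 7 libraries were from males. The age of the mice is not given in the sources used here. A further day 3 library, whose title and sort label disagree, was left out.

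In the healthy cord microglia are long-lived, ramified cells that hold a homeostatic programme of receptors such as P2ry12 and Tmem119. After injury they respond within hours with chemokines and cytokines, and they are known to lose part of that programme, to divide and to take up debris. Lipid-handling genes such as Apoe and Lpl mark the state described in neurodegeneration as disease-associated microglia. Division itself is read in RNA from 2 separate sets of genes: those for DNA replication, switched on as cells leave rest, and those for mitosis, switched on later in the cycle.

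The summed counts held 3509364 to 4571381 UMIs per library at day 1 and 485160 to 2076989 at day 3. The summed level of 10 microglia markers was 4794 to 9106 CPM at day 1 and 11070 to 14640 CPM at day 3, and none of the 10 was at 0 in all 8 libraries. Markers of 8 monocyte genes summed to 12.5 to 46.9 CPM at day 1 and 38.8 to 184.6 CPM at day 3, those of 8 macrophage genes to 385 to 587 and 194 to 728 CPM, and those of 8 neutrophil genes to 38.3 to 103 and 37.1 to 78.0 CPM, with Ly6g and Ngp at 0. Microglia made up 95.9% to 98.3% of the deposited cells in the day 1 libraries, but 67.9%, 91.2%, 99.6%, 99.4% and 14.4% in day 3 resident 1, resident 2, mixed 1, mixed 2 and mixed 3. The day 3 mixed 3 library held 3019 macrophages beside its 521 microglia. The 3 day 1 libraries shared 1 sequencing pool and the 5 day 3 libraries came from 4 other pools; time and pool cannot be told apart. Day 3 mixed 1 and mixed 2 carried another set of cell barcodes: 23.8% and 24.6% of their barcodes began with 6 bases also seen at the start of day 1 barcodes, against 88.1% to 98.1% in the other 6 libraries. Among the 8 libraries 4 barcodes were shared.

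Of 10801 genes tested, 2030 (18.8%) passed an adjusted p of 0.05 in edgeR's quasi-likelihood test, 931 higher at day 3 (8.62%) and 1099 lower (10.2%). Genes that passed and whose 5 day 3 libraries all lay above the 3 day 1 libraries numbered 639 (5.92%), and 864 (8.0%) passed with all day 3 libraries below. The larger count of lower genes turned with the scaling: under median-of-ratios scaling 1056 were higher and 919 lower. Without day 1 mixed 2 the total was 1004, with 434 higher and 570 lower. With the 8 libraries alone, thinned once at random to the lowest total among them, 91 genes passed. In the sentences below, values for day 3 follow the order resident 1, resident 2, mixed 1, mixed 2 and mixed 3, and those for day 1 the order mixed 1, mixed 2 and mixed 3.

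The genes that rose most were genes of mitosis, linker and core histones, Gpnmb and Apoc1, and those that fell most were Cxcl2, the syndecan Sdc4, the chemokines Ccl12, Ccl7 and Ccl5, the RNA-binding proteins Ybx3 and Zfp36, Postn, Il1rn, Adam8, Socs3 and Jdp2. These 24 genes are those with the largest changes in each direction among genes that passed, had a mean of at least 20 CPM over the 8 libraries and showed no overlap between the groups. Ccl5 did not pass in 6 of the 8 fits that left out 1 library, all but those without day 1 mixed 1 or day 3 resident 1, with an adjusted p of 0.0596 to 0.162, and its log2 change was −2.40, and −1.70 without day 1 mixed 3. Histone genes have near-identical copies between which reads can be split, so their values by gene are uncertain. The plot of single libraries shows all 24.

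**Figure D1:**
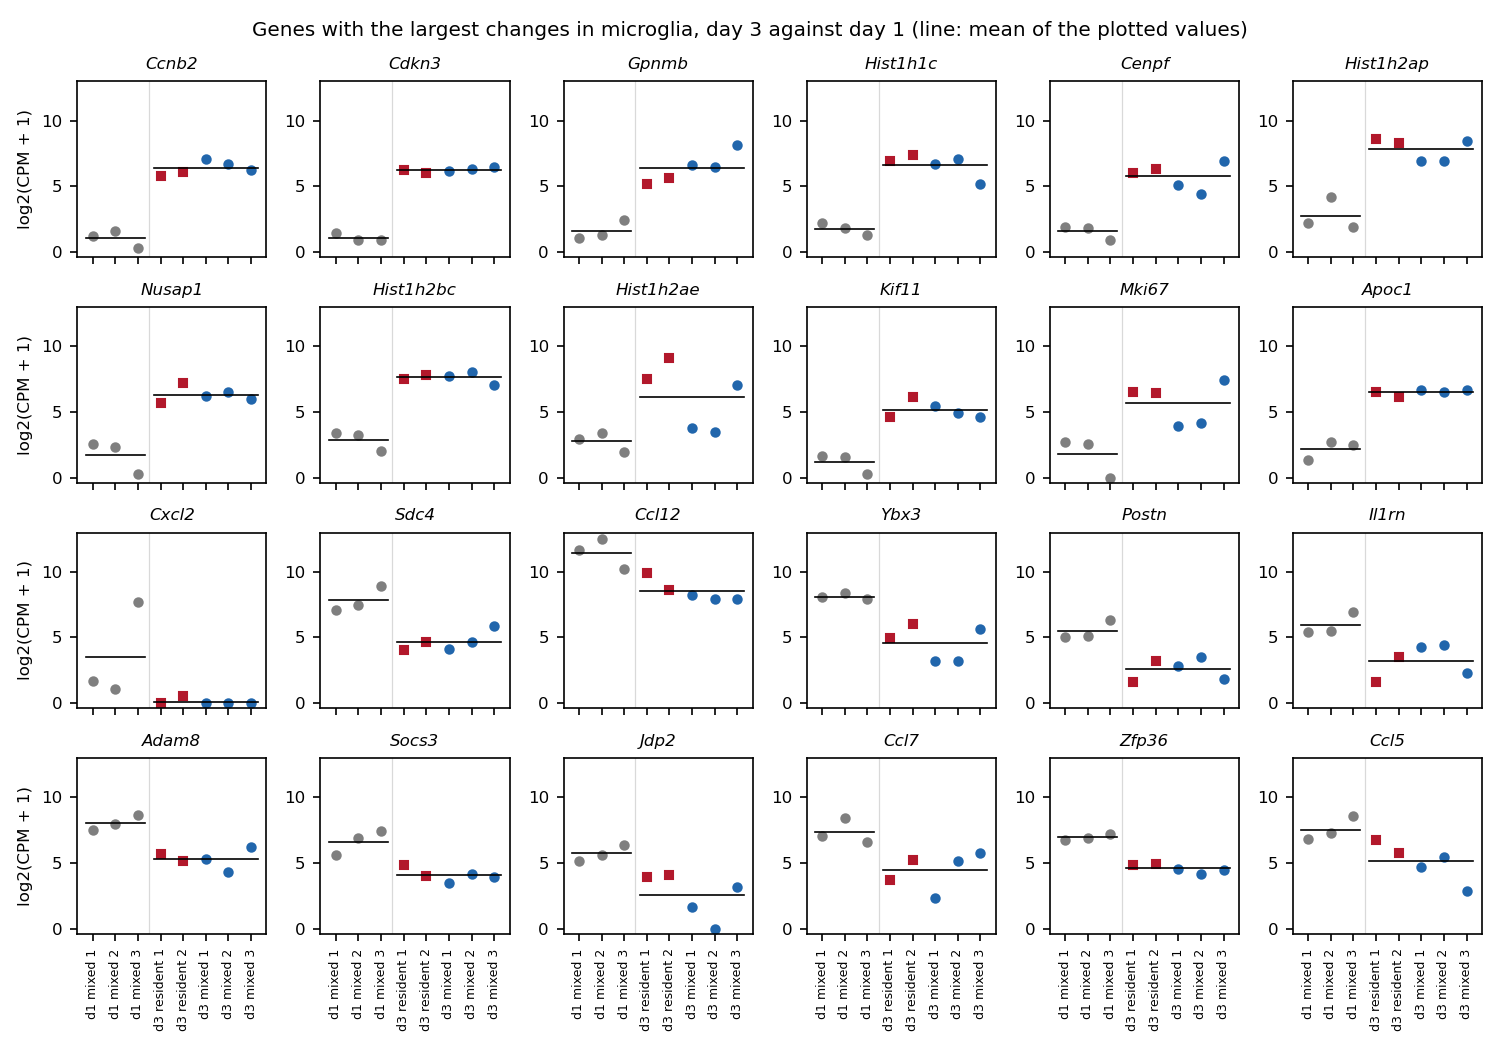
Level of the 12 genes that rose most (upper rows) and the 12 that fell most (lower rows) in microglia, as log2(CPM + 1) on the vertical axis, for each of the 8 libraries along the horizontal axis. Circles are mixed and squares resident libraries, and black lines are the means of the plotted values; the day 1 and day 3 points do not overlap in any panel, which the rule for choosing these genes required, and Cxcl2 was above 2.19 CPM in day 1 mixed 3 alone.

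Among the 27 lists of pathways and functions mitosis had the highest median change. Of 28 mitosis genes tested, 27 were higher at day 3 and none was lower, with a median log2 change of 3.63 against 0.02 over all genes. In 25 of them all 5 day 3 libraries lay above all 3 day 1 libraries, against 989 of the 10801 genes tested. The member that did not pass was Pttg1, securin, with a log2 change of 0.20 ± 0.25 (SE) and an adjusted p of 0.628. The summed level of the 28 genes was 344, 284 and 104 CPM at day 1 and 1833, 2624, 2113, 2205 and 1997 CPM at day 3. Leaving out any of the 8 libraries gave 26 or 27 higher genes. With the cells of the deposited clusters 6, 7 and 10 left out, which earlier results of these data describe as dividing cells, 6 of the 28 genes were higher.

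Ccnb2, a B-type cyclin that drives entry into mitosis, was at 1.31, 1.99 and 0.232 CPM at day 1 and at 53.6, 67.9, 134, 106 and 76.1 CPM at day 3. Every day 3 library thus stood far above every day 1 library, a 66.3-fold rise (log2 6.05 ± 0.67, adjusted p = 2.6e-05). Cdkn3, a phosphatase that acts on cyclin-dependent kinases, was at 1.75, 0.855 and 0.928 CPM at day 1 and at 73.5, 65.0, 70.1, 79.3 and 88.0 CPM at day 3. Its day 3 libraries lay close together, and the change was 53.4-fold (log2 5.74 ± 0.37, adjusted p = 1.25e-07). The kinetochore protein gene Cenpf was at 2.84, 2.56 and 0.928 CPM at day 1 and at 63.5, 79.4, 33.0, 20.3 and 123 CPM at day 3. Here mixed 1 and mixed 2, the libraries with the other barcodes, were the lowest of day 3, and the fitted rise was 28.4-fold (adjusted p = 0.000176). Kif11, the motor that separates the spindle poles, rose 24.7-fold and the spindle protein gene Nusap1 rose 27.5-fold, both with an adjusted p of 0.000147.

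Mki67, the common marker of dividing cells, was at 5.69, 4.84 and 0 CPM at day 1 and at 89.3, 85.7, 14.4, 16.9 and 168 CPM at day 3. Its day 3 libraries spread widely, with mixed 1 and mixed 2 again lowest, yet they did not overlap day 1 (log2 4.51 ± 0.97, adjusted p = 0.0041). Without day 1 mixed 3, where no count was found, its log2 change was 3.90. Top2a, a topoisomerase used from replication to mitosis, was at 35.4, 28.2 and 0.696 CPM at day 1 and at 137, 376, 148, 143 and 155 CPM at day 3. Its log2 change was 3.20 ± 0.79 (adjusted p = 0.00978), and 2.61 without day 1 mixed 3. In the mixed libraries alone Top2a did not pass (adjusted p = 0.0578). With the cells of clusters 6, 7 and 10 left out the log2 change was 2.67 for Mki67 (adjusted p = 0.042), 0.79 for Top2a (0.548), 1.87 for Cenpf (0.136), 2.04 for Kif11 (0.107) and 1.68 for Nusap1 (0.215). In the same fit it was 5.42 for Ccnb2 (9.41e-05) and 5.65 for Cdkn3 (3.97e-05), against 6.05 and 5.74 with all cells.

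Promoter letters are shown for 3 of these genes because mitosis genes are known as a class to be controlled through a pair of short elements, the CCAAT box bound by NF-Y and the cell cycle homology region (CHR). The windows hold the 250 bases before the transcription start from RefSeq on GRCm38.p6, printed 5′ to 3′ on the strand of the gene, and overlap no annotated exon. Capitals mark CCAAT (or its reverse, ATTGG) and TTTGAA (or its reverse, TTCAAA), searched on both strands; these motifs did not overlap each other in the windows shown. Ccnb2 lies at chr9:70421555-70421804 on the minus strand, Cdkn3 at chr14:46760291-46760540 on the plus strand and Cenpf at chr1:189688087-189688336 on the minus strand.
Ccnb2: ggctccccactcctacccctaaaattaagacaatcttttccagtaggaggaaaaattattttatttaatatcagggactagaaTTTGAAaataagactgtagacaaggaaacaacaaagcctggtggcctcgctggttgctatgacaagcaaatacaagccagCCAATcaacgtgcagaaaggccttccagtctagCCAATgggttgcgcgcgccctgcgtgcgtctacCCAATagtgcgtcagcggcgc
Cdkn3: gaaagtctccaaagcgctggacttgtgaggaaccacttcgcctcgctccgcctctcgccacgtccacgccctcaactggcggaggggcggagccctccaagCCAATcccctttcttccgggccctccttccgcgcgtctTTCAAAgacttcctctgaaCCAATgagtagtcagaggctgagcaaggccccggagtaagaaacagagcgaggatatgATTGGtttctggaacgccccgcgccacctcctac
Cenpf: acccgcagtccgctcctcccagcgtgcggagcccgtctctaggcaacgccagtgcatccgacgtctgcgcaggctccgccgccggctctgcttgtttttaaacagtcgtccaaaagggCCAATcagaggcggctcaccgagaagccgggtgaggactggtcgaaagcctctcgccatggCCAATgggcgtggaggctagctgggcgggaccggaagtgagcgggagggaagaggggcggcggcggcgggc
Ccnb2 and Cdkn3 each held 1 TTTGAA and 3 CCAAT, and Cenpf held 2 CCAAT and no TTTGAA. A window was found for 24 of the 28 mitosis genes. CCAAT was in 21 of these 24 (87.5%), against 37.06% of 8658 tested genes with a window and 34.46% of all 27025 windows. TTTGAA was in 8 of 24 (33.33%), against 10.58% and 16.27%. All 8 of those windows also held CCAAT, a pair present in 5.73% of all windows. These matches are letters in a window and were not tested as binding sites.

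Of 22 genes of DNA replication tested, 2 (9.09%, against 8.62% of all genes) were higher at day 3 (Rrm2 and Tk1), none was lower, and the median log2 change was −0.15. The count of higher genes was 1 without day 1 mixed 2 or day 3 mixed 1, 3 without day 3 mixed 3, and 0 in the mixed libraries alone or with the cells of clusters 6, 7 and 10 left out. Rrm2, a subunit of ribonucleotide reductase, had a log2 change of 2.24 ± 0.69 (adjusted p = 0.0316) with overlapping libraries. Tk1, thymidine kinase, was at 15.1, 12.5 and 0.232 CPM at day 1 and at 39.7, 73.2, 72.1, 99.6 and 45.3 CPM at day 3 (log2 2.79 ± 0.69, adjusted p = 0.0101, and 2.19 without day 1 mixed 3). Mcm2, part of the helicase that opens DNA for replication, was at 75.3, 65.3 and 19.7 CPM at day 1 and at 23.8, 27.4, 35.0, 55.7 and 13.2 CPM at day 3. Its groups overlapped (log2 −0.84 ± 0.57, adjusted p = 0.335). The sliding clamp gene Pcna was at 209, 145 and 107 CPM at day 1 and at 242, 167, 291, 262 and 60.4 CPM at day 3 (adjusted p = 0.674). The summed replication list ran from 449 to 1591 CPM at day 1 and from 607 to 1543 CPM at day 3. Day 1 mixed 3 was the lowest of the 8 libraries in this sum as in that of mitosis. Without it 1 replication gene was higher and 2 were lower.

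Cells with such transcripts were counted as well. Each cell was thinned to 2000 UMIs, and a cell was counted where at least 2 distinct genes of a list were detected. Cells with fewer UMIs were left out, so that 925 of 1197, 642 of 790 and 936 of 1321 microglia entered at day 1 and 75 of 108, 449 of 967, 75 of 252, 92 of 317 and 269 of 521 at day 3. The share with mitosis transcripts was 11.2%, 9.03% and 1.50% at day 1 and 41.3%, 44.5%, 40.0%, 45.7% and 33.8% at day 3. The groups did not overlap, with means of 7.26% ± 5.11 (SD, n = 3) and 41.1% ± 4.66 (SD, n = 5) and a difference of 33.8 percentage points. A 2-sided exact permutation test over libraries gave p = 0.0357, the smallest its 56 arrangements allow, and 0.0714 when adjusted over the 2 lists. The unthinned shares were 19.5%, 17.8% and 2.95% at day 1 and 56.5%, 45.2%, 42.5%, 45.4% and 29.9% at day 3.

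Free RNA can place such transcripts in cells that do not divide, and the same count was made in other cells. In 1307 neutrophil-like cells of all libraries (S100a8 at 46832 CPM), thinned alike, the mitosis share was 8.11%, and in microglia of the 2 control libraries, which had laminectomy alone, it was 1.21% and 5.33%. The neutrophil-like cells had a median of 2154 UMIs before thinning, and the microglia medians were 2652 to 3680 at day 1 and 1577 to 3421 at day 3. No library compared here gave more than 10 of the neutrophil-like cells, so the level of free RNA in these 8 libraries was not measured. The highest day 1 share was 11.2% and the lowest day 3 share was 33.8%.

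DNA replication transcripts were found in 61.3%, 50.8% and 18.3% of thinned day 1 microglia and in 41.3%, 45.2%, 44.0%, 51.1% and 24.5% of day 3 microglia. The groups overlapped, with means of 43.4% ± 22.4 (SD, n = 3) and 41.2% ± 9.99 (SD, n = 5), and the exact permutation p was 0.893. The direction of this small difference of −2.22 points changed when day 1 mixed 1, day 1 mixed 2 or day 3 mixed 3 was left out. The unthinned replication shares were 71.8%, 66.7% and 28.0% at day 1 and 61.1%, 44.0%, 44.8%, 45.7% and 28.8% at day 3. In the control microglia 7.20% and 28.4% of thinned cells were counted, and in the neutrophil-like cells 9.49%.

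**Figure D2:**
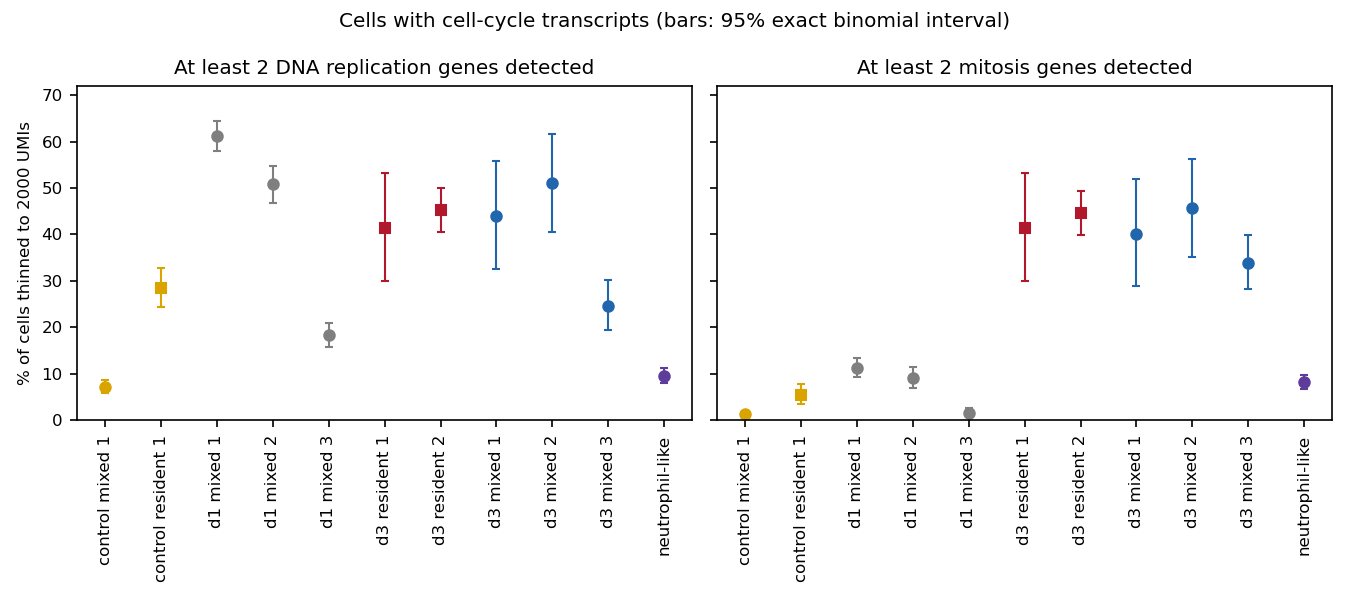
Percent of cells (vertical axis) with at least 2 detected genes of the DNA replication list (left) or mitosis list (right) after thinning to 2000 UMIs, by library, with 95% exact binomial intervals that cover counting error only. Yellow points are control microglia, purple the neutrophil-like cells of all libraries, circles mixed and squares resident libraries; mitosis shares are 1.50% to 11.2% at day 1 and 33.8% to 45.7% at day 3, while replication shares overlap.

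Of 15 tested brakes and p53 targets, 5 were higher at day 3 (33.3%, against 8.62% of all genes) and 1 was lower (6.67%, against 10.2%). The count of higher genes was 3 without day 1 mixed 2 and 3 with the cells of clusters 6, 7 and 10 left out. Cdkn2c, which encodes the CDK4/6 inhibitor p18, was at 12.7, 13.4 and 6.50 CPM at day 1 and at 47.6, 58.7, 107, 103 and 26.4 CPM at day 3 (5.57-fold, adjusted p = 0.000983). Cdkn2d, for the related p19, rose 3.14-fold from 20.4 ± 8.88 (SD, n = 3) to 71.0 ± 21.9 CPM (SD, n = 5). With those clusters left out neither passed, at a log2 change of 0.90 for Cdkn2c (adjusted p = 0.217) and 0.33 for Cdkn2d (adjusted p = 0.562). Cdkn1b, for p27, rose 2.87-fold to 23.3 ± 8.40 CPM, below its 59.9 and 105 CPM in the control libraries. Cdkn1a, for p21, the best known p53 target, was at 99.3, 87.5 and 226 CPM at day 1 and at 64.2 to 189 CPM at day 3 and did not pass (adjusted p = 0.606). Mdm2, which marks p53 for degradation, had a log2 change of −0.81 (adjusted p = 0.0201). No gene of the list was lower without day 3 resident 2, and 3 were without day 3 mixed 3.

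Lipid carriers of the Apoe gene cluster rose in all day 3 libraries. Apoe, the main apolipoprotein of the nervous system, was at 909, 917 and 1341 CPM at day 1 and at 16764, 9898, 24118, 17341 and 12603 CPM at day 3. The lowest day 3 library stood well above the highest day 1 library, and the fitted rise was 14.5-fold (log2 3.86 ± 0.40, adjusted p = 1.87e-05). Apoc1 was at 1.53, 5.41 and 4.64 CPM at day 1 and at 89.3, 69.3, 103, 89.5 and 101 CPM at day 3, a 22.1-fold rise. Apoc4 was at 0.219, 0 and 0.696 CPM at day 1, near the limit of detection, and at 14.4 to 33.3 CPM at day 3 (log2 5.86 ± 0.54, and 7.03 without day 1 mixed 3). The 3 genes are neighbours on GRCm38 chromosome 7: Apoc4 at chr7:19678083-19681479, Apoc1 at chr7:19689481-19692660 and Apoe at chr7:19696109-19699188, all on the minus strand. Pltp, the phospholipid transfer protein, rose 6.39-fold but from 0.968 to 6.99 CPM only. With these 4 genes, 4 of 14 tested genes of cholesterol efflux and lipid storage were higher and none was lower. Of 19 cholesterol synthesis genes none was higher and 1 (5.26%, against 10.2% of all genes) was lower, Sc5d (adjusted p = 0.0239). Sc5d did not pass without day 1 mixed 1 (0.153), day 3 mixed 2 (0.0519) or day 3 mixed 3 (0.0557), and 0 to 2 genes of this list were lower without single libraries.

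The wider disease-associated list rose in part. Of 24 tested members 12 were higher at day 3, 2 were lower (8.33%, against 10.2%), and the median log2 change was 0.87. Without single libraries 8 to 12 were higher, and 1 was lower without day 1 mixed 2, day 1 mixed 3, day 3 mixed 2 or day 3 resident 2. Igf1, a growth factor for neurons and glia, was at 13.6, 7.69 and 4.64 CPM at day 1 and at 77.4, 127, 183, 211 and 212 CPM at day 3 (17.5-fold, adjusted p = 1.85e-05). Trem2, the lipid receptor that this state depends on, rose 2.21-fold from 700 ± 190 to 1726 ± 436 CPM (adjusted p = 0.00345). Cst7, a cathepsin inhibitor, was at 78.8, 68.1 and 39.0 CPM at day 1 and at 101, 210, 346, 216 and 208 CPM at day 3 (3.34-fold, adjusted p = 0.00228). Lpl, lipoprotein lipase, went the other way: it was at 1141, 1037 and 936 CPM at day 1 and at 449, 223, 301, 355 and 380 CPM at day 3. All day 3 libraries lay below day 1, a 3.38-fold fall (log2 −1.76 ± 0.21, adjusted p = 6.73e-05). Spp1, osteopontin, was among the most abundant transcripts at both times, at 16254 to 38319 CPM at day 1 and 15797 to 33902 CPM at day 3. Its groups overlapped, and the 95% interval of the log2 difference ran from −0.60 to 0.67. In the control libraries Spp1 was at 9.83 and 18.9 CPM. Trem2 was at 2729 and 2003 CPM there, above every day 1 library. Igf1, at 2.14 and 0 CPM there, and Cst7, at 17.9 and 38.8 CPM, were below every day 3 library.

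Gpnmb and Fabp5, genes of lipid-laden macrophages, were highest in the library with the most macrophages. Gpnmb, a lysosomal glycoprotein, was at 1.09, 1.42 and 4.41 CPM at day 1 and at 35.7, 47.7, 98.9, 87.8 and 292 CPM at day 3 (log2 5.50 ± 0.68, adjusted p = 9.33e-05). Fabp5, a fatty acid carrier, was at 142, 142 and 233 CPM at day 1 and at 361, 476, 264, 253 and 1157 CPM at day 3 (2.72-fold, adjusted p = 0.0274). The 3019 macrophages of day 3 mixed 3 had 4695 CPM of Gpnmb and 13838 CPM of Fabp5. Day 3 mixed 1 and mixed 2 held 1 and 2 macrophages, and resident 1 and resident 2 held 40 and 79. The first pair had more Gpnmb and less Fabp5 than the second. The part of macrophage RNA in these values was not tested. Without day 3 mixed 3 the log2 change of Gpnmb was 4.73 with an adjusted p of 2.98e-05. It was 6.39 without day 1 mixed 3 and 6.58 without the cells of the deposited cluster 2. For Fabp5 the log2 change without day 3 mixed 3 was 0.88 with an adjusted p of 0.0701, and it also missed the threshold without day 1 mixed 1 (0.104) or day 1 mixed 2 (0.114). Lgals3, galectin-3, was at 467, 282 and 1104 CPM at day 1 and at 496, 635, 862, 743 and 1261 CPM at day 3 and did not pass (adjusted p = 0.696).

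Lysosome genes rose in part. Of 27 lysosome genes tested 11 (40.7%, against 8.62% of all genes) were higher at day 3 and 3 (11.1%, against 10.2%) were lower (Ctsc, Ctsl and Atp6v0c), with a median log2 change of 0.68. The count of higher genes was 6 without day 1 mixed 2 and 7 without day 1 mixed 3. The count of lower genes was 0 without day 1 mixed 2 or in the mixed libraries alone and 1 without day 1 mixed 1, day 3 mixed 2 or day 3 resident 2. Ctsd, cathepsin D, was at 7324, 4461 and 3114 CPM at day 1 and at 15766, 13237, 19839, 16159 and 20060 CPM at day 3 (3.21-fold, adjusted p = 0.000865). Hexa, a subunit of the hexosaminidase that cuts gangliosides, rose 3.86-fold from 205 ± 64.8 to 838 ± 277 CPM (adjusted p = 0.000298). Grn, progranulin, rose 2.84-fold from 807 ± 83.5 to 2483 ± 708 CPM (adjusted p = 0.00199). Scarb2, which carries glucocerebrosidase to the lysosome, was at 91.2, 62.7 and 68.9 CPM at day 1 and at 304, 207, 218, 198 and 227 CPM at day 3 (adjusted p = 0.00049). The control libraries had 831 and 768 CPM of Hexa and 210 and 186 CPM of Scarb2, above every day 1 library. Their Ctsd, at 7006 and 6556 CPM, and Grn, at 1231 and 1167 CPM, lay below every day 3 library. Among the cysteine proteases Ctsb and Ctsh were higher, and Ctss had a log2 change of −0.11.

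Of 18 homeostatic genes tested, 9 were higher at day 3 than at day 1 (against 8.62% of all genes). Only 1 was lower (5.56%, against 10.2% of all genes), and the median log2 change was 0.94. P2ry12, the ADP receptor that steers microglial processes, was at 122, 98.0 and 76.1 CPM at day 1 and at 165, 193, 643, 714 and 329 CPM at day 3. The groups did not overlap, with mixed 1 and mixed 2 highest (3.88-fold, adjusted p = 0.00658). Without these 2 libraries its log2 change was 1.20 in place of 1.96 (adjusted p = 0.0237). The 2 control libraries had 1420 and 3590 CPM, above every day 3 library. Slc2a5, the fructose transporter, rose 7.96-fold from 2.96 ± 1.22 to 25.6 ± 8.69 CPM, against 203 and 226 CPM in the control libraries. Olfml3, a secreted olfactomedin, was at 887, 673 and 137 CPM at day 1 and at 1354, 1742, 1352, 1705 and 1765 CPM at day 3 (2.70-fold, adjusted p = 0.0174, and 0.11 in the mixed libraries alone). Tmem119 was at 269, 206 and 91.4 CPM at day 1 and at 500, 270, 357, 378 and 274 CPM at day 3. It did not pass (log2 0.77 ± 0.30, adjusted p = 0.0784), but did without day 1 mixed 1 (1.07, adjusted p = 0.0452) and in DESeq2 (0.85, adjusted p = 0.0362). Sall1, the transcription factor that defines microglial identity, was at 18.6 to 25.1 CPM at day 1 and 13.5 to 39.7 CPM at day 3 and did not pass (adjusted p = 0.65). Cst3, cystatin C, was the member that fell, from 18262, 15838 and 25485 CPM to 7784, 5225, 7884, 7132 and 13614 CPM (2.59-fold, adjusted p = 0.00389). The count of higher homeostatic genes was 3 without day 1 mixed 2, and 5 without day 1 mixed 3, without day 3 resident 1 or in the mixed libraries alone.

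Cx3cr1, the fractalkine receptor, was at 6.13, 4.27 and 6.96 CPM at day 1 and at 643, 340, 4.12, 16.9 and 78.6 CPM at day 3. Both high libraries were resident, day 3 mixed 1 lay below all day 1 libraries, and the Cre allele sits in this gene. Its log2 change was 4.58 over all libraries, 2.52 in the mixed libraries alone (adjusted p = 0.0358) and 2.60 with sort as a term (adjusted p = 0.0105). Over all libraries it passed with an adjusted p of 0.0366, which rose to between 0.055 and 0.125 when day 1 mixed 1, 2 or 3 or day 3 resident 1 or 2 was left out, with a log2 change of 3.56 without day 3 resident 2.

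CC chemokines, which draw monocytes and other leukocytes, fell from day 1 to day 3. Of 10 tested, 8 were lower at day 3 and none was higher, with a median log2 change of −2.33. The summed level was 8474, 10442 and 5003 CPM at day 1 and 2293, 1209, 2269, 2284 and 1200 CPM at day 3. The count was 5 without day 1 mixed 2, the library with the highest sum, and 5 in the mixed libraries alone. Ccl12, a ligand of the monocyte receptor CCR2, was at 3193, 5772 and 1201 CPM at day 1 and at 987, 383, 299, 246 and 245 CPM at day 3. The groups did not overlap (9.25-fold lower, log2 −3.21 ± 0.60, adjusted p = 0.00176), and the log2 change was −2.58 without day 1 mixed 2. Ccl2, the main CCR2 ligand, was at 899, 1425 and 707 CPM at day 1 and at 461, 160, 276, 219 and 127 CPM at day 3 (4.98-fold lower, adjusted p = 0.011). Ccl7 was at 133, 345 and 94.2 CPM at day 1 and at 11.9, 36.6, 4.12, 33.8 and 54.1 CPM at day 3 (6.33-fold lower, adjusted p = 0.00469). Without day 1 mixed 2 neither passed, with adjusted p values of 0.0599 for Ccl2 and 0.0529 for Ccl7, and the log2 change of Ccl7 was −1.92 in place of −2.66. These 3 genes lie together on GRCm38 chromosome 11, from Ccl2 at chr11:82035571-82037453 to Ccl12 at chr11:82101845-82103400.

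Ccl4, another attractant of leukocytes, was at 2398, 1010 and 708 CPM at day 1 and at 349, 201, 703, 690 and 340 CPM at day 3, where mixed 1 and mixed 2 reached almost to day 1 mixed 3. It was 3.23-fold lower (adjusted p = 0.0138), but did not pass without day 1 mixed 1 (log2 −1.07, adjusted p = 0.13) or in the mixed libraries alone (0.0666). Ccl3 was at 914, 366 and 799 CPM at day 1 and at 216, 207, 622, 643 and 190 CPM at day 3. Its groups overlapped and it did not pass (log2 −1.02 ± 0.42, adjusted p = 0.0958), whereas without mixed 1 and mixed 2 its log2 change was −1.91 (adjusted p = 0.00114). Ccl6, which acts on CCR1, fell 5.10-fold with no overlap (adjusted p = 9.44e-05).

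Of the neutrophil-attracting CXC chemokines, Cxcl2 and Cxcl3 were lower at day 3 and rested on a single library. Cxcl2 was at 2.19, 1.14 and 202 CPM at day 1 and at 0.481 CPM in day 3 resident 2 and 0 in the other 4 day 3 libraries. Over each group this is 886 against 1 UMI, a ratio of 375 with an exact interval of 67.2 to 14840 that covers counting error alone. Cxcl3 had 265 UMIs at day 1 and none at day 3, at least 37.4-fold lower against a floor of 3 UMIs over the group. Of 7 CXC chemokines tested these 2 passed. Cxcl3 (adjusted p = 0.0307) did not pass without day 3 mixed 3 (0.0657) or day 3 resident 2 (0.0749), in the mixed libraries alone (0.166) or in DESeq2 (0.308), and Cxcl2 did not in the mixed libraries alone (0.136). Without day 1 mixed 3 both missed the filter on low counts and were not tested.

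Of 8 inflammatory cytokines tested, 4 were lower at day 3 (against 10.2% of all genes) and 1, Il18, was higher (12.5%, against 8.62%). The count of lower genes was 2 without day 1 mixed 3 or day 3 resident 2 and 1 in the mixed libraries alone, and Il18 did not pass without day 1 mixed 1 (adjusted p = 0.105) or day 1 mixed 2 (0.0783). Il1rn, which encodes the antagonist of the interleukin-1 receptor, was at 40.9, 44.2 and 124 CPM at day 1 and at 1.99, 10.6, 18.6, 20.3 and 3.77 CPM at day 3 (7.63-fold lower, adjusted p = 0.00108). Its log2 change was −2.93, and −2.21 without day 1 mixed 3. Il6 had 46 UMIs at day 1 and none at day 3, at least 6.50-fold lower, and was already low at 1.09, 3.42 and 6.73 CPM at day 1. Il1b was at 3.02 to 6.13 CPM at day 1 and 0 to 7.54 CPM at day 3 (adjusted p = 0.991). Tnf was at 24.5, 12.8 and 22.7 CPM at day 1 and at 23.8, 4.81, 2.06, 1.69 and 16.3 CPM at day 3 and did not pass (adjusted p = 0.127).

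Socs3, the inhibitor induced by STAT3, was at 47.3, 117 and 172 CPM at day 1 and at 27.8, 14.9, 10.3, 16.9 and 14.5 CPM at day 3 (7.13-fold lower, adjusted p = 0.000292). Zfp36, which binds and destabilises cytokine mRNAs, was at 109, 120 and 143 CPM at day 1 and at 27.8, 28.9, 22.7, 16.9 and 20.7 CPM at day 3 (5.75-fold lower, adjusted p = 1.87e-05). Of 18 immediate early genes tested 6 (33.3%, against 10.2% of all genes) were lower, Zfp36, Ier2 and Jund among them, and 2 (11.1%, against 8.62%) were higher, Egr2 and Klf2. None was higher without day 1 mixed 1 (adjusted p = 0.0854 for Klf2) or day 1 mixed 3 (0.0836), and 1 was without day 1 mixed 2, day 3 mixed 1 or day 3 mixed 2. Fos did not pass (adjusted p = 0.27), at 2.28 to 7.44 CPM at day 1 and 0 to 5.66 CPM at day 3. Among 14 NF-kB factors and inhibitors 2 were higher and 2 lower (14.3% each, against 8.62% and 10.2% of all genes), and the median log2 change was −0.02. Without single libraries 1 or 2 were higher and 0 to 3 lower, and in the mixed libraries alone none passed.

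Ribosome biogenesis, the making of ribosomes in the nucleolus, fell in nearly every gene listed. Of 16 tested 15 were lower at day 3, with a median log2 change of −1.61. All 15 had every day 3 library below every day 1 library, against 1042 of the 10801 genes tested. Cad, a pyrimidine synthesis enzyme, was the exception at −0.87. Leaving out single libraries gave 13 to 15 lower genes, and the 3 day 1 libraries lay close together, with sums of 5870, 6378 and 5831 CPM against 2339, 3008, 2424, 2340 and 2113 CPM at day 3. Nop58, a core protein of box C/D ribonucleoproteins, was at 191, 213 and 191 CPM at day 1 and at 51.6, 79.4, 55.7, 52.3 and 43.4 CPM at day 3 (3.87-fold lower, log2 −1.95 ± 0.24, adjusted p = 7.89e-05). Srm and Odc1, enzymes of polyamine synthesis, fell 4.70-fold and 4.41-fold. Srm was at 290, 334 and 218 CPM at day 1 and at 33.8, 50.1, 98.9, 81.0 and 65.4 CPM at day 3. Myc, the transcription factor known to drive these genes, was at 53.2, 52.1 and 47.3 CPM at day 1 and at 11.9, 10.1, 18.6, 32.1 and 5.66 CPM at day 3 (3.97-fold lower, adjusted p = 0.00144).

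Heat shock proteins, which fold other proteins, fell as well. Of 9 tested 7 were lower and none was higher, with a median log2 change of −1.33, and the summed level was 7059 to 8438 CPM at day 1 and 3022 to 3992 CPM at day 3. Hspd1, the mitochondrial chaperone HSP60, was at 747, 779 and 482 CPM at day 1 and at 183, 269, 167, 172 and 179 CPM at day 3 (3.77-fold lower, adjusted p = 0.000108). Hsp90ab1, the constitutive HSP90, was at 2991, 2811 and 2918 CPM at day 1 and at 1152, 1627, 565, 555 and 1567 CPM at day 3 (2.86-fold lower, adjusted p = 0.00383). Hspa8, the constitutive HSC70, fell 2.51-fold (adjusted p = 0.00136). Of 16 genes of the unfolded protein and amino acid stress responses 3 were lower (18.75%, against 10.2% of all genes). The count was 6 without day 1 mixed 3 and 2 without day 1 mixed 2. Among the 3 was Atf4, at 75.2 to 121 CPM at day 1 and 37.1 to 65.5 CPM at day 3 (adjusted p = 0.00499).

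**Figure D3:**
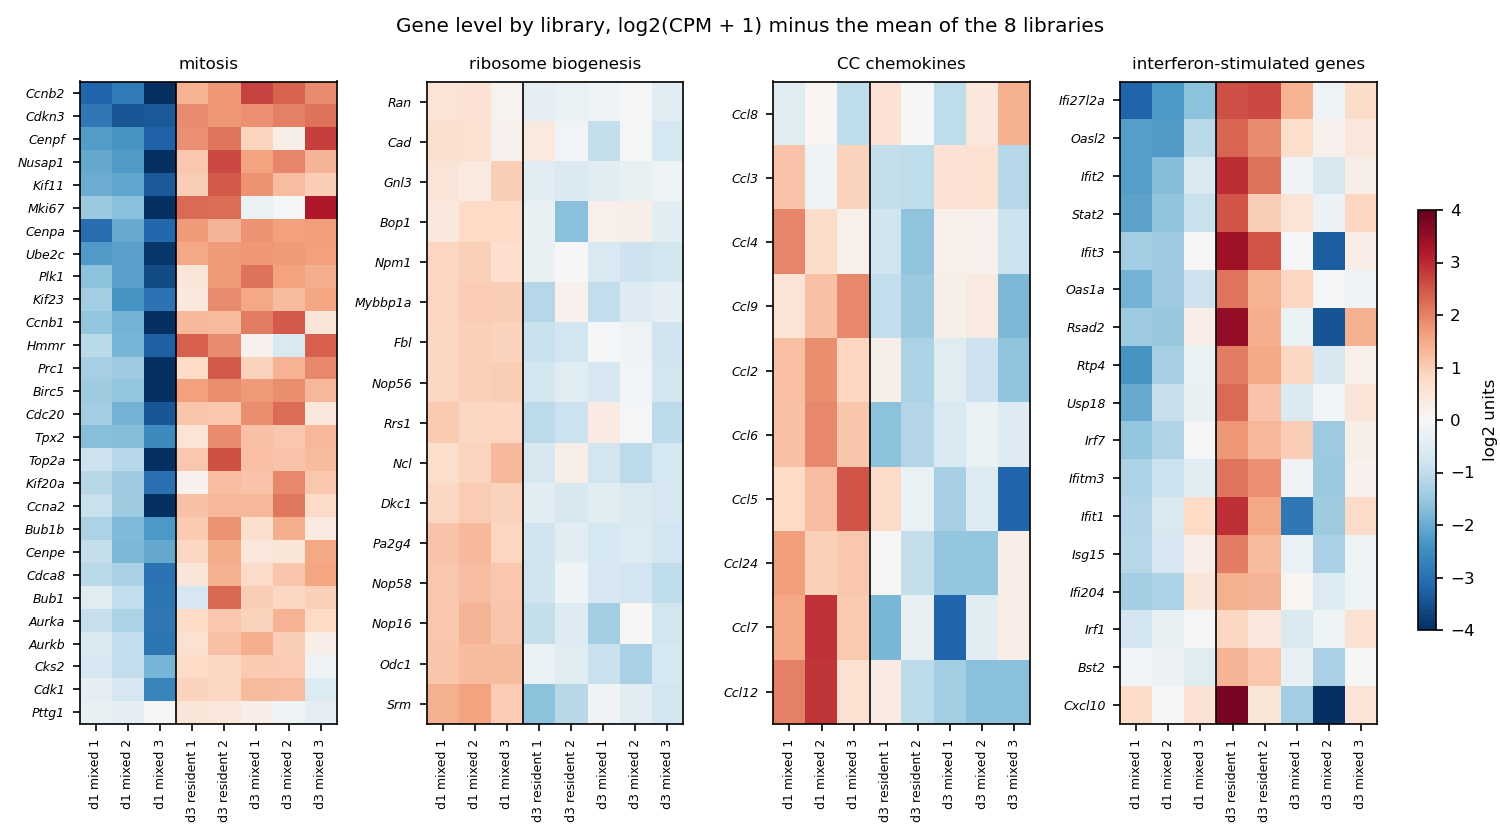
Level of the tested genes of 4 lists (rows; 1 interferon-stimulated gene is not shown) in the 8 libraries (columns, day 1 left of the black line), as log2(CPM + 1) minus the mean of the gene over the 8 libraries; red is above and blue below that mean. In 25 of the 28 mitosis genes all 5 day 3 columns are above day 1, in 15 of the 16 ribosome biogenesis genes all are below, and the summed interferon-stimulated genes are highest in the 2 resident libraries.

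Interferon-stimulated genes were higher at day 3 in part, and most in the resident libraries. Of 18 tested 7 were higher, none was lower, and the median log2 change was 2.01. Their summed level was 756, 806 and 1073 CPM at day 1 and 6796, 5540, 2088, 846 and 1892 CPM at day 3, so that mixed 2 stood within the range of day 1. Of these genes 4 passed without day 1 mixed 1 or without day 1 mixed 2, and 12 passed without day 3 mixed 2. With both day 3 mixed 1 and mixed 2 left out 14 passed, and 5 passed in the mixed libraries alone. Monocyte markers moved with these genes in part, at 184.6 and 167.6 CPM in the 2 resident libraries, and their part in the result was not tested.

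Ifi27l2a, a small interferon-induced gene, was at 40.3, 75.8 and 120 CPM at day 1 and at 2287, 2375, 998, 326 and 634 CPM at day 3 (14.1-fold, log2 3.81 ± 0.76, adjusted p = 0.00269). Its log2 change was 2.87 in the mixed libraries alone and 2.91 with sort as a term. Stat2, a transcription factor that carries the type I interferon signal, was at 1.09, 1.99 and 3.95 CPM at day 1 and at 51.6, 17.3, 12.4, 6.75 and 15.7 CPM at day 3 (7.62-fold, adjusted p = 0.0043). Its log2 change was 2.93, and 3.56 without day 1 mixed 3, 2.19 in the mixed libraries alone and 2.43 with sort as a term. Oasl2, a relative of the oligoadenylate synthetases, was at 2.41, 2.28 and 6.50 CPM at day 1 and at 79.4, 58.3, 24.7, 16.9 and 20.7 CPM at day 3 (10.6-fold, adjusted p = 0.00569; log2 3.40, and 4.08 without day 1 mixed 3, 2.26 in the mixed libraries alone and 2.45 with sort as a term). Oas1a, an oligoadenylate synthetase, was at 5.03 to 11.6 CPM at day 1 and 19.5 to 97.3 CPM at day 3 (5.29-fold, adjusted p = 0.0201), and did not pass without day 1 mixed 1 (0.0807) or day 1 mixed 2 (0.0753). Its log2 change was 2.40, and 1.48 in the mixed libraries alone and 1.56 with sort as a term. The mixed and the resident control library had 103 and 370 CPM of Ifi27l2a and 27.2 and 62.0 CPM of Stat2. They had 12.3 and 84.7 CPM of Oasl2 and 4.47 and 31.3 CPM of Oas1a. The resident control was above the mixed control in each, and above every day 3 library in Stat2 and Oasl2. Psmb9, an interferon-induced subunit of the immunoproteasome, rose 2.35-fold from 34.3 ± 3.93 to 94.9 ± 43.6 CPM (adjusted p = 0.0125, and 0.114 in the mixed libraries alone). It was the 1 of 8 genes of MHC class I presentation that passed (12.5% higher, against 8.62% of all genes). Of the 8, 3 were higher without day 3 mixed 3, 2 without day 3 mixed 2 or day 3 resident 2, and none in the mixed libraries alone.

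Promoter windows are shown for Stat2 and Oas1a because interferon-stimulated genes are known to be switched on through the interferon-stimulated response element (ISRE). The 250 bases before the start are printed as above, from RefSeq on GRCm38.p6, and overlap no annotated exon. Capitals mark GAAA, any 2 bases and GAAA again, or the reverse of this, searched on both strands; the 2 matches in Oas1a overlap. Stat2 lies at chr10:128270248-128270497 on the plus strand and Oas1a at chr5:120907526-120907775 on the minus strand.
Stat2: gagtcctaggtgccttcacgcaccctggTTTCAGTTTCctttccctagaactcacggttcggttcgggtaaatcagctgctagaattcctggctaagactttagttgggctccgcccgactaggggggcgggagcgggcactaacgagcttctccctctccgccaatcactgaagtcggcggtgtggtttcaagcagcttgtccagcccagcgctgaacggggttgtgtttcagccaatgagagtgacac
Oas1a: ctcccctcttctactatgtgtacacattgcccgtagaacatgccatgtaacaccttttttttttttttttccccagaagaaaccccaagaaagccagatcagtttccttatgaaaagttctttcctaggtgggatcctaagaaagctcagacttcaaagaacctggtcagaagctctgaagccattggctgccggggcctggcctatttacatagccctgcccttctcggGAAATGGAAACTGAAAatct
A window was found for 13 of the 19 listed interferon-stimulated genes, and 8 of the 13 (61.54%) held this motif, against 2.86% of tested genes with a window and 3.04% of all windows. No binding was measured.

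Of 19 adhesion and matrix genes tested 7 were lower (36.8%, against 10.2% of all genes) and 3 were higher (15.8%, against 8.62%). The count of lower genes was 4 without day 1 mixed 2. Sdc4, a heparan sulfate proteoglycan of the cell surface, was at 132, 178 and 497 CPM at day 1 and at 15.9, 23.6, 16.5, 23.6 and 57.8 CPM at day 3. It fell 10.1-fold with no overlap (log2 −3.33 ± 0.42, adjusted p = 8.81e-05), and by 2.53 on the log2 scale without day 1 mixed 3. Adam8, a membrane protease of activated leukocytes, was at 178, 256 and 405 CPM at day 1 and at 49.6, 33.7, 39.2, 18.6 and 74.2 CPM at day 3 (7.21-fold lower, adjusted p = 0.000154). Tgfbi, a matrix protein induced by TGF-beta, fell 4.26-fold (adjusted p = 0.00026). Itga4, the alpha 4 integrin chain, was at 0.875, 0.285 and 0 CPM at day 1 and at 1.99, 18.3, 2.06, 1.69 and 15.7 CPM at day 3. It passed (log2 4.49 ± 0.80, adjusted p = 0.00119), but 3 of its day 3 libraries were near 2 CPM, and without day 1 mixed 1 its log2 change was 5.86. Itga4 is also among the monocyte markers summed above, and the part of monocyte RNA in its rise was not tested.

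Of 19 phagocytic and scavenger receptors, which bind debris and microbial products, 3 (15.8%) were lower (Msr1, Marco and Cd14) and 2 (10.5%) were higher (Trem2 and Axl). These shares lie near the 10.2% and 8.62% of all genes tested, and without single libraries 2 or 3 were lower and 1 to 4 higher. Msr1, the class A scavenger receptor, was at 527, 831 and 850 CPM at day 1 and at 115, 204, 169, 133 and 149 CPM at day 3 (5.26-fold lower, adjusted p = 2.18e-05). Cd14, the co-receptor for lipopolysaccharide, was at 925, 716 and 1156 CPM at day 1 and at 222, 103, 258, 267 and 185 CPM at day 3 (5.16-fold lower, adjusted p = 5.99e-05). Among 11 complement genes 2 were lower and 2 higher (18.2% each, against 10.2% and 8.62% of all genes), and without single libraries 1 or 2 were lower and 0 to 4 higher. C5ar1, the receptor for C5a, fell 3.50-fold from 786 ± 217 to 242 ± 83.4 CPM (adjusted p = 0.000627). Of 6 MHC class II genes only Cd74, the invariant chain, passed (16.7% lower, against 10.2% of all genes). Without day 3 mixed 2 another 2 were higher. Cd74 was at 183, 179 and 160 CPM at day 1 and at 47.6, 64.0, 39.2, 40.5 and 64.1 CPM at day 3 (3.44-fold lower, adjusted p = 0.000939).

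Slc40a1, ferroportin, the exporter of iron, was at 5.69, 2.56 and 3.71 CPM at day 1 and at 7.94, 17.8, 33.0, 40.5 and 21.4 CPM at day 3 (5.51-fold, adjusted p = 0.000893), against 71.7 and 96.1 CPM in the control libraries. Hmox1, which breaks down heme, was at 882, 1372 and 1934 CPM at day 1 and at 488, 928, 499, 559 and 818 CPM at day 3. Its groups overlapped; it was 2.34-fold lower (adjusted p = 0.0274) and missed the threshold without day 1 mixed 2 (0.0722) or day 1 mixed 3 (0.129). Of 16 genes of heme, iron and antioxidant response 4 were lower and 1 (6.25%, against 8.62% of all genes) was higher, and none was lower without day 1 mixed 3. The summed red blood cell markers were 14.2 to 31.3 CPM at day 1 and 0 to 69.5 CPM at day 3.

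Of 34 nuclear genes of oxidative phosphorylation none was higher (against 8.62% of all genes) and 1, Uqcrc2, was lower (2.94%, against 10.2%). The median log2 change was −0.17. Uqcrc2 (adjusted p = 0.0406) did not pass in 6 of the 8 fits that left out 1 library (0.0585 to 0.115) or under median-of-ratios scaling (0.0647). Of 23 glycolysis and hypoxia genes 5 were lower (21.7%, against 10.2% of all genes) and none was higher. The count of lower genes was 1, 2, 3 and 3 without day 1 mixed 2, day 1 mixed 3, day 3 mixed 2 and day 3 resident 2. The glucose transporter gene Slc2a1 passed in each of these, at 57.1, 80.4 and 68.7 CPM at day 1 and 27.8, 18.3, 24.7, 15.2 and 28.3 CPM at day 3 (3.30-fold lower, adjusted p = 0.000242). Of 10 growth factor genes 3 were higher (Igf1, Csf1 and Grn) and 1, Hbegf, was lower (1 of 10, near the 10.2% of all genes). Csf1 (adjusted p = 0.0319) did not pass in 6 of the 8 fits that left out 1 library (0.0542 to 0.131), and none of the 10 was lower without day 1 mixed 1, day 1 mixed 2, day 3 mixed 2 or day 3 resident 2. Among 22 transcription factors of lineage and state 3 were higher (13.6%, against 8.62% of all genes) and 4 lower (18.2%, against 10.2%). None was higher without day 1 mixed 1 or day 1 mixed 3 or in the mixed libraries alone, and 1 was without day 1 mixed 2. Batf3, a dendritic cell factor, fell 4.04-fold from 40.5 ± 14.7 to 10.0 ± 3.87 CPM (adjusted p = 0.000212), and the Y-box protein gene Ybx3 fell 8.95-fold from 279 ± 43.2 to 31.5 ± 24.1 CPM (adjusted p = 0.000177).

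**Figure D4:**
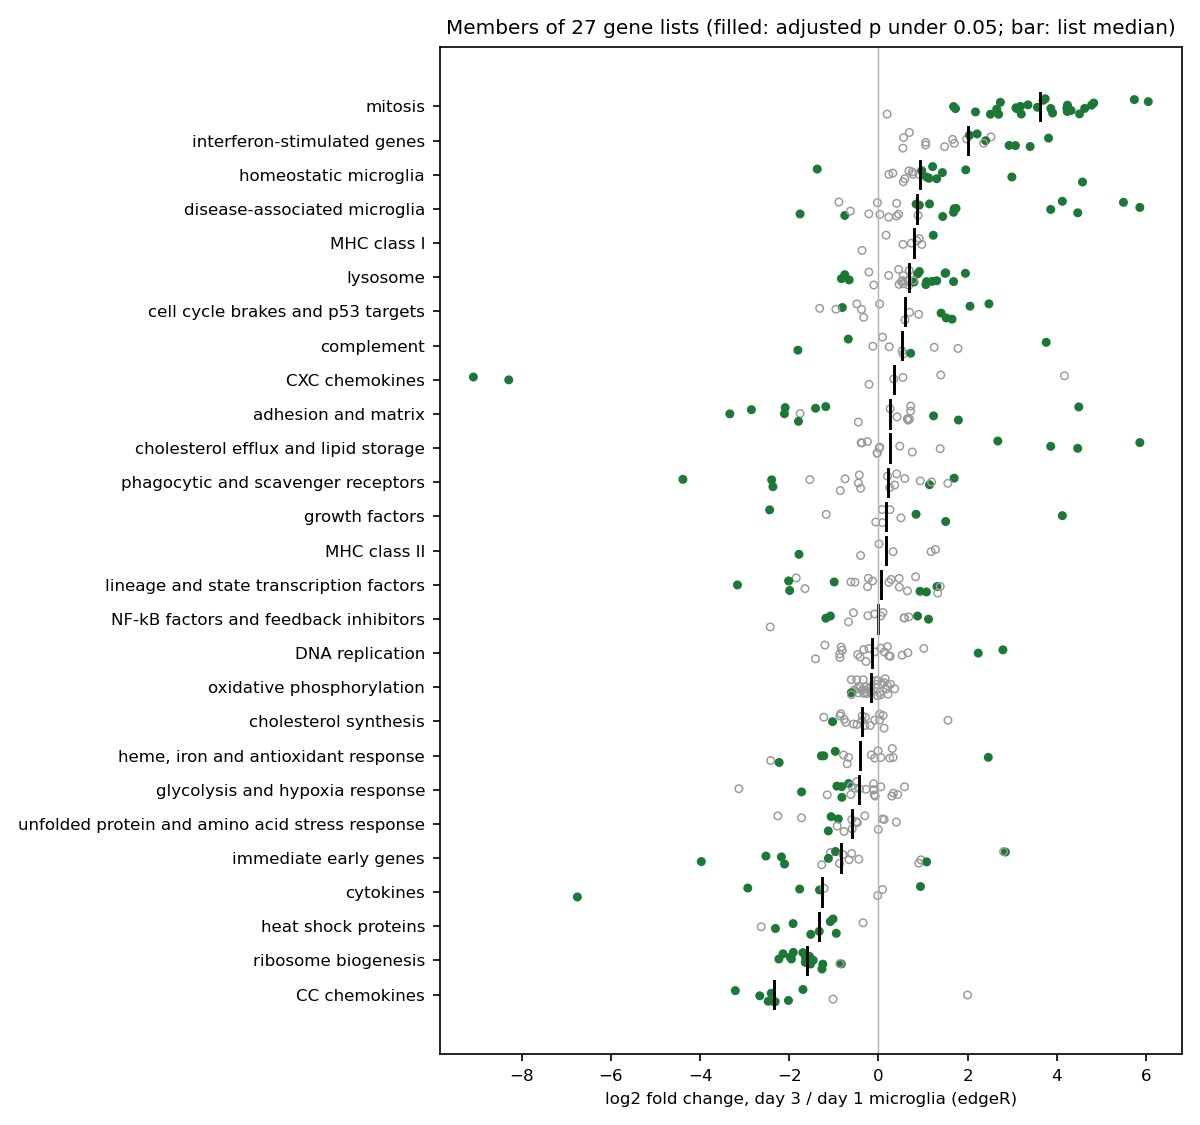
Log2 fold change of each tested gene between day 3 and day 1 microglia (horizontal axis) for the 27 gene lists (vertical axis, ordered by median). Filled points passed an adjusted p of 0.05 and black bars are list medians; the mitosis list has the highest median, 3.63, and the CC chemokine and ribosome biogenesis lists have medians of −2.33 and −1.61. The fitted values of Cxcl2, Cxcl3 and Il6 at the far left rest on counts of 1 or 0 at day 3 and their size is not a bound.

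The microglia of the other time points place these values in sequence, as a description, with 2 control, 3 day 2, 3 day 10 and 1 day 21 libraries. Day 2 mixed 2 held only 23 microglia and 135097 UMIs, and each library has the same weight in the means. Ccnb2 had a mean of 1.44 CPM in controls, 87.7 at day 2, 87.6 at day 3, 17.8 at day 10 and 6.31 at day 21. The rise in this gene was thus already present in the day 2 libraries. Apoe had 2346 CPM at day 2, 16145 at day 3, 57183 at day 10 and 68188 at day 21, a later course. Lpl had 66.2 CPM in controls, 1038 at day 1, 383 at day 2, 341 at day 3, 965 at day 10 and 1054 at day 21, so the day 3 level was a low between higher values. Srm was at 47.3 CPM in controls, 281 at day 1, 134 at day 2 and 65.8 at day 3, and Hspd1 at 140, 669, 339 and 194 CPM. Msr1 was at 3.68 CPM in controls, 736 at day 1, 249 at day 2, 154 at day 3 and 41.4 at day 10.

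**Figure D5:**
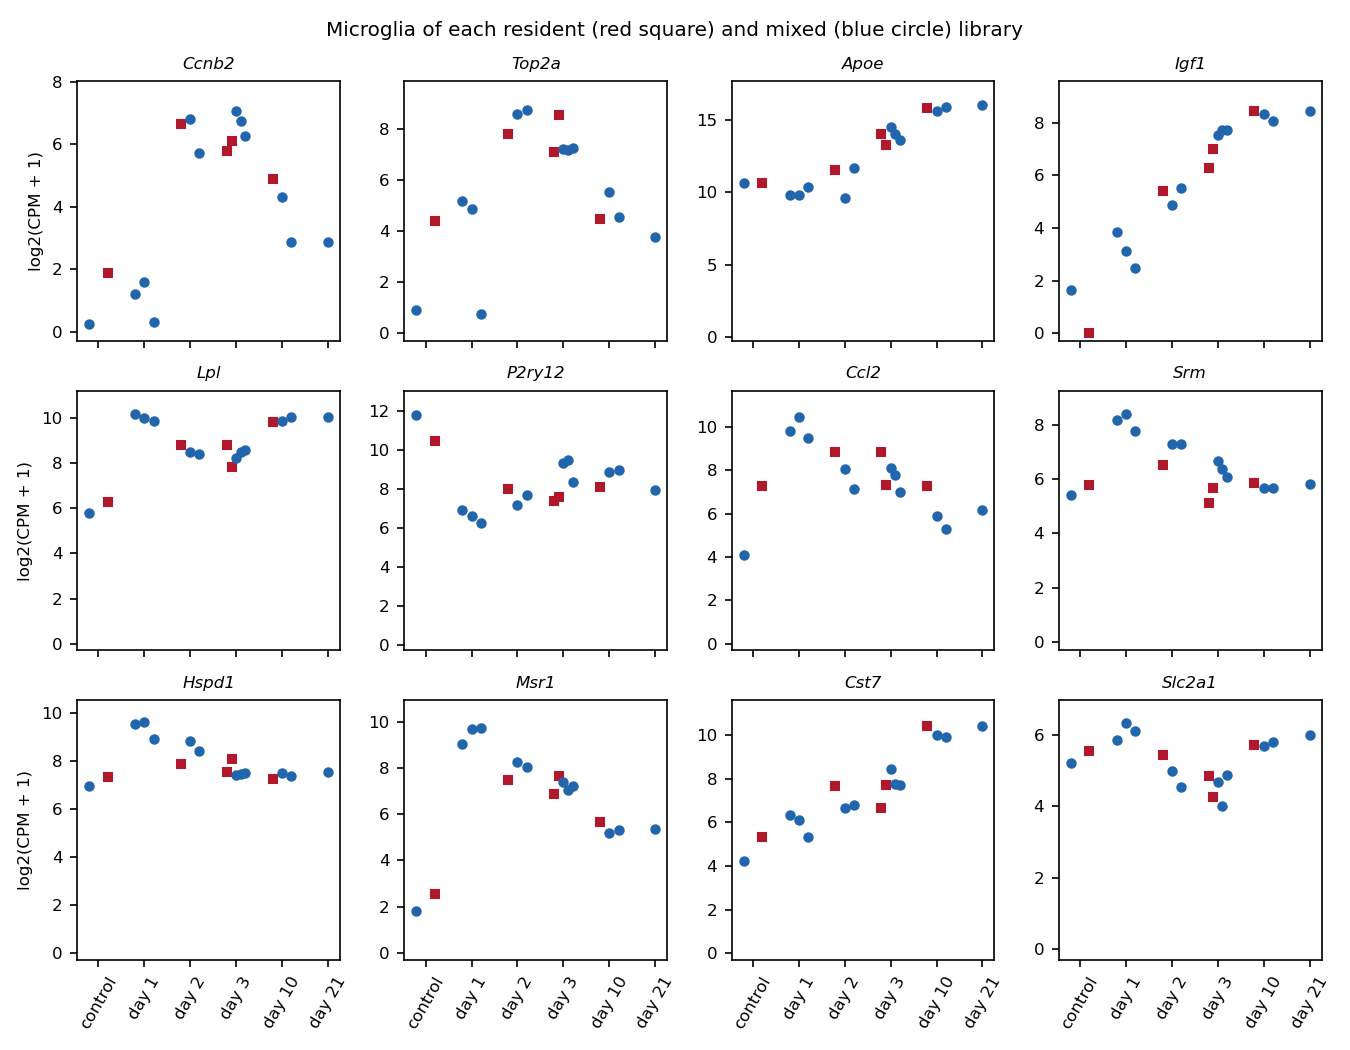
Level of 12 genes in microglia of each resident (red squares) and mixed (blue circles) library, as log2(CPM + 1) on the vertical axis, from control to day 21 along the horizontal axis. Ccnb2 is near 0 at day 1 and high from day 2 to day 3, Apoe rises up to day 21, and Srm and Hspd1 fall from day 1 to day 3 in steps.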

How the data were processed

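The files hold unnormalized UMI counts of every gene in every cell, as deposited by the authors, and a table that gives each cell a type code and a cluster code. Per the submitters' processing notes, Cell Ranger 3.1.0 and GRCm38 were used, with no role or cell filter given. No further filter was applied, doublets were not called, and no correction for free RNA was made. Counts of code 1 cells were summed per library and tested with edgeR 4.0.16 (R 4.3.3), with TMM scaling, filterByExpr, and time and sex as terms, over the 17 resident and mixed libraries of all times with at least 20 such cells. The contrast was day 3 minus day 1, with Benjamini-Hochberg adjustment over 10801 genes and a threshold of 0.05. SE is the size of the log2 change divided by the root of the test's F. CPM divides by the summed microglial UMIs, while fold changes come from the fit, so they can differ from a ratio of CPM means.

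Shares of cells were compared by exact permutation over libraries. Among the 8 libraries compared, the 5 of day 3 held the fewest microglial UMIs, which limits precision. Nothing says that mice were shared or not between libraries, so p-values measure the spread between these libraries. In summed cells a change in the mix of cell states and a change of RNA per cell cannot be told apart.

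The members and the 27 gene lists were chosen with earlier results of these data known. Named genes are the 12 largest changes in each direction among genes that passed, at a mean of at least 20 CPM and with no overlap, up to 4 such genes of each list, and 20 genes named whatever their change; other members are named to show a list's exceptions and were chosen after their values were seen. Sex-linked and transgene transcripts are not analysed here. 1 listed interferon-stimulated gene enters the list's counts and sum but is not reported here by itself. The procedure was tested on simulated data. DESeq2 1.42.0, other scalings and filters, other library sets, equal depth and leaving out each library were tried as alternatives. Motifs and coordinates use RefSeq on GRCm38.p6 and GENCODE on GRCm38.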

Additional observations from a re-analysis of the deposited data

Results flagged for a closer look

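In 10 of 101 groups of values tested, the highest or lowest of the 5 day 3 libraries stood far from the other 4; about 1 in 20 would do so by chance. Day 3 mixed 3 was highest for Sdc4, at 57.8 CPM against 15.9 to 23.6 in the others, for Gpnmb, at 292 against 35.7 to 98.9 CPM, and for Fabp5, at 1160 against 253 to 476 CPM. Day 3 resident 1 was highest for Ccl12, at 987 against 245 to 383 CPM, for Stat2, at 51.6 against 6.75 to 17.3 CPM, and for Scarb2, at 304 against 198 to 227 CPM. Day 3 resident 2 was highest for Hspd1, at 269 against 167 to 183 CPM, for Top2a, at 376 against 137 to 155 CPM, and for Cxcl2, at 0.481 CPM (1 UMI) against 0. The same library was lowest for Csf1, at 40.4 against 71.5 to 82.4 CPM.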

How the results depend on the processing

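Against 2030 genes that passed, other settings gave 891 with the 8 libraries alone, 1190 with the mixed libraries alone, 91 at equal depth (1 random draw), and 1004 to 2170 when each library was left out in turn. With the 6 mixed libraries of both days alone, 662 passed with no block and 387 with a replicate block. The titles do not say whether their numbers pair the libraries. Correlations of deviations were −0.017, 0.10 and 0.086 between libraries with the same number and −0.11 to 0.044 between the others. Deviations from the means of so few libraries cannot decide this. DESeq2 gave 2534 genes. The mitosis share difference of 33.8 points was 32.6 with the mixed libraries alone and 32.6 without the day 3 libraries of the other barcode set, an alternative chosen after seeing the data (exact permutation p = 0.1 for both, the smallest possible), and 30.9 to 35.8 without single libraries. The replication share difference was 1.54 at 1000 UMIs, 1.02 with at least 3 genes, and −14.8 to 6.71 without single libraries. Of 99 named genes 91 passed, 35 of these in every setting run. The reversals were in named genes that did not pass. Without single libraries Lgals3 ran from −0.12 to 0.97, Spp1 from −0.20 to 0.54 and Il1b from −0.49 to 0.36. Sall1 was −0.056 in the mixed libraries and −0.0002331 with the replicate block. Spp1 was −0.15 without the other barcode set. Il1b was 0.047 in DESeq2, 0.043 in median-of-ratios scaling, 0.006144 with at least 50 cells, 0.005794 with no filter, 0.17 in mixed libraries, 0.27 with no block, 0.25 with the replicate block, 0.21 without the other barcode set, 0.22 without cluster 2 and 0.14 without clusters 6, 7 and 10. The causes were not tested. Depth at day 3 limits what can be called for genes with low counts.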

Other observations

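The gene families below were chosen by their symbols after values were seen, and their counts are a description. All 8 subunits of the CCT chaperonin, which folds actin and tubulin, were lower at day 3, with a median log2 change of −1.18. In all 8 every day 3 library lay below day 1, against 1042 of the 10801 genes tested. Cct3 was at 369 ± 17.6 CPM (SD, n = 3) at day 1 and 136 ± 29.0 CPM (SD, n = 5) at day 3. Of 38 proteasome subunits 23 were lower and 1, Psmb9, was higher; 14 were lower without day 1 mixed 2, 12 without day 1 mixed 3 and 11 in the mixed libraries alone. Among 52 translation initiation factors 17 were lower and none was higher, and among 17 cytosolic aminoacyl-tRNA synthetases 5 were lower, but 1 and 2 without day 1 mixed 2 and day 1 mixed 1. Of 75 mitochondrial ribosomal proteins 21 were lower, and 12 without day 1 mixed 2 and 13 in the mixed libraries alone. Of 81 cytosolic ribosomal proteins 22 were lower, but 4, 8 and 12 without day 1 mixed 2, day 1 mixed 3 and day 3 mixed 2. The median log2 change of these last lists ran from −0.42 to −0.53.

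Clustered histone genes have main transcripts that lack a poly(A) tail and are read poorly by this assay. Of 48 tested 42 were higher at day 3 with a median log2 change of 4.69, but in 8 alone (against 989 of the 10801 genes tested) did all day 3 libraries lie above day 1. Between 19 and 25 were higher without day 3 resident 2 (19), day 1 mixed 1 (23), day 1 mixed 2 (24) or day 1 mixed 3 (25). In the mixed libraries alone 14 of 46 tested were higher, and 17 of 42 with the cells of clusters 6, 7 and 10 left out. Their sum was 43.4 to 84.6 CPM at day 1 and 1265, 4564, 540, 648 and 1287 CPM at day 3. Hist1h1c, a linker histone, was at 3.72, 2.56 and 1.39 CPM at day 1 and at 119, 169, 103, 133 and 35.2 CPM at day 3. Near-identical copies can split reads.

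Among thinned cells with replication transcripts, those that also held mitosis transcripts were 16.4%, 15.0% and 5.85% at day 1 and 51.6%, 62.6%, 63.6%, 61.7% and 56.1% at day 3. In day 3 libraries Apoe was lower in mitosis-positive cells than in the other cells of the same library in 5 of 5 libraries, at 15677 against 21239 CPM in resident 1, 7268 against 12363 in resident 2, 10071 against 16924 in mixed 3, 12967 against 35722 in mixed 1 and 11298 against 24400 in mixed 2. P2ry12 and Fabp5 were lower in mitosis-positive cells in 5 of 5 libraries as well. At day 1 Apoe was higher in mitosis-positive cells in 2 of 3 libraries, at 1144 against 913 CPM in mixed 1 and 1026 against 969 in mixed 2, and lower in mixed 3, at 143 against 1403 CPM with 14 mitosis-positive cells. P2ry12 was at 154 against 110 CPM in day 1 mixed 1, 155 against 82.2 in mixed 2 and 0 against 73.2 in mixed 3. These are among 18 genes compared, and no difference was tested.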
